A study of Homo sapiens with 16 samples.

Results

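The same 499 short DNA inserts, each carried with 4 barcodes, were read out in K562 cells from an episomal plasmid and from an integrated lentiviral vector. The comparison uses 8 of the 16 samples of the series. The episomal library (EpiShort) has 2 RNA samples read by TSS-MPRA and 2 samples of its DNA, and the lentiviral library (LentiShort) has the same numbers. K562 is a human erythroleukaemia line; the labels call the cells wild type, name no treatment or time, and give all groups the same line and medium. TSS-MPRA is a reporter assay in which 5′ ends of capped RNA are sequenced together with a barcode, so each read tells which insert was transcribed and at which base transcription began. All 499 inserts were members, chosen by library and not by a measured value: 250 carry the name RAND, 91 GWAS, 78 Celeb, 40 SDadd and 40 SDmut. RAND, GWAS, SDadd and SDmut inserts name a genomic region on hg38, Celeb inserts name a gene or regulatory element, GWAS names mark single-base alleles, and SDadd and SDmut names mark an added or a mutated splice donor next to an unchanged reference insert.

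RNA totals were 21571370 and 19020540 reads in the episomal samples and 11140433 and 11741702 in the lentiviral samples. DNA totals were 15286382 and 1698930 in the episomal and 8614823 and 9989471 in the lentiviral samples, so the second episomal DNA sample was the shallowest. The labels do not say whether replicates came from separate transfections or infections, so the p-values speak of the scatter among these samples, part or all of which may be technical. The vector and the preparation of its libraries cannot be told apart. The files hold reporter inserts and no endogenous genes, so the erythroid identity of the cells was not checked.

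An episomal plasmid remains outside the chromosomes, whereas a lentiviral vector is packaged as RNA, reverse transcribed and inserted into the genome, where it is wrapped in chromatin and lies among host genes. RNA polymerase II begins transcription in promoters most often at a purine that follows a pyrimidine, the core of the initiator element. Promoters range from focused ones, with a dominant start base, to dispersed ones, whose starts spread over many bases. A splice donor just downstream of a start is bound by U1 snRNP and marks the 5′ end of an intron.

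Start positions are given here as bases along the insert, which has 200 positions. Position 128, called the designed start, was taken from these data: it is the most used start over all inserts in the 4 RNA samples. Inserts were placed on hg38 at the offset, 1 per strand, that put the most starts on a purine after a pyrimidine. So placed, position 128 lies within a base of the middle of the region in the insert's name. It was the main start of 234 of 488 inserts with at least 50 RNA reads in every RNA sample, a count that is not independent of its choice. The main start is the position with the most reads when the 4 RNA samples are weighted equally. The windows below, from hg38, run 20 bases before and 10 bases from the main start, with the base before the start and the start base in capitals. They are shown because these inserts mark the extremes of the vector comparison: PTMA and an intergenic site on chromosome 20 had near-identical profiles in both vectors, RAP1GAP, LINC00649 and TNPO1 had a larger main start share in the lentiviral vector, TANGO2 a smaller one, and ZSCAN29 had the largest loss of output per DNA among the RAND inserts.
PTMA, chr2:231708510-231708539, plus strand: tggcgccgcgtgagtccccCActggctgct
Intergenic site, chr20:2525752-2525781, minus strand: catatagtcaggaagtaacTAcaatcagtt
RAP1GAP, chr1:21669348-21669377, minus strand: catgtgacgtccccctcccCGaactgcggc
LINC00649 intron, chr21:33948066-33948095, plus strand: cctgggctttttccagcccCAgtgtagtgg
TNPO1, chr5:72848153-72848182, plus strand: gccgcggcggcagcagcagCAgacgctggc
TANGO2, chr22:20021592-20021621, minus strand: cttactatctactcacaccCAcattagctg
ZSCAN29, chr15:43371014-43371043, minus strand: acttccggtttgggagctgTActtgggagg
In all of these the capitals are a pyrimidine followed by a purine, the pair that the placement on hg38 was fitted to. Some other inserts named below lack this pair at their main start. Among them, the bases are TC at the FPR1 intron site, GA at WDR74, RNFT2 and the start of ENSG00000289569, and CC at AFF1. The unchanged YWHAB insert has GA as well.

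Starts were more focused in the lentiviral vector. The main start held a mean of 28.7% and 28.2% of an insert's reads in the episomal samples and 34.1% and 34.1% in the lentiviral samples, over 488 inserts. The share passed the test (limma on log2 odds, adjusted p under 0.05) in 282 inserts, 57.8% of those tested: it was higher in the lentiviral vector in 252 (51.6%) and lower in 30 (6.15%). Both lentiviral samples lay above both episomal samples in 342 inserts (70.1%) and below both in 67 (13.7%). The median number of positions needed to hold 80% of an insert's reads was 11 and 12 in the episomal and 8 and 8 in the lentiviral samples. Without the second episomal RNA sample 182 inserts passed, 163 higher and 19 lower.

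In each class most calls had this direction. The share was higher in the lentiviral vector in 136 of 245 RAND, 46 of 87 GWAS, 26 of 77 Celeb, 22 of 40 SDadd and 22 of 39 SDmut inserts, and lower in 15, 4, 6, 2 and 3. The median difference in log2 odds was 0.42 for RAND, 0.43 for GWAS, 0.22 for Celeb, 0.38 for SDadd and 0.46 for SDmut, against 0.39 over all 488 inserts. Inserts at an annotated start on their own strand had 99 higher and 11 lower of 178, and inserts with no annotated start within 500 bp had 73 and 6 of 135. The share at the designed start alone, whatever the main start was, also differed, in 232 of 488 inserts (47.5%), with 176 higher (36.1%) and 56 lower (11.5%) in the lentiviral vector. Counted over positions up to 140 only, with the main start taken again among them, 215 were higher and 37 lower.

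**Figure D1:**
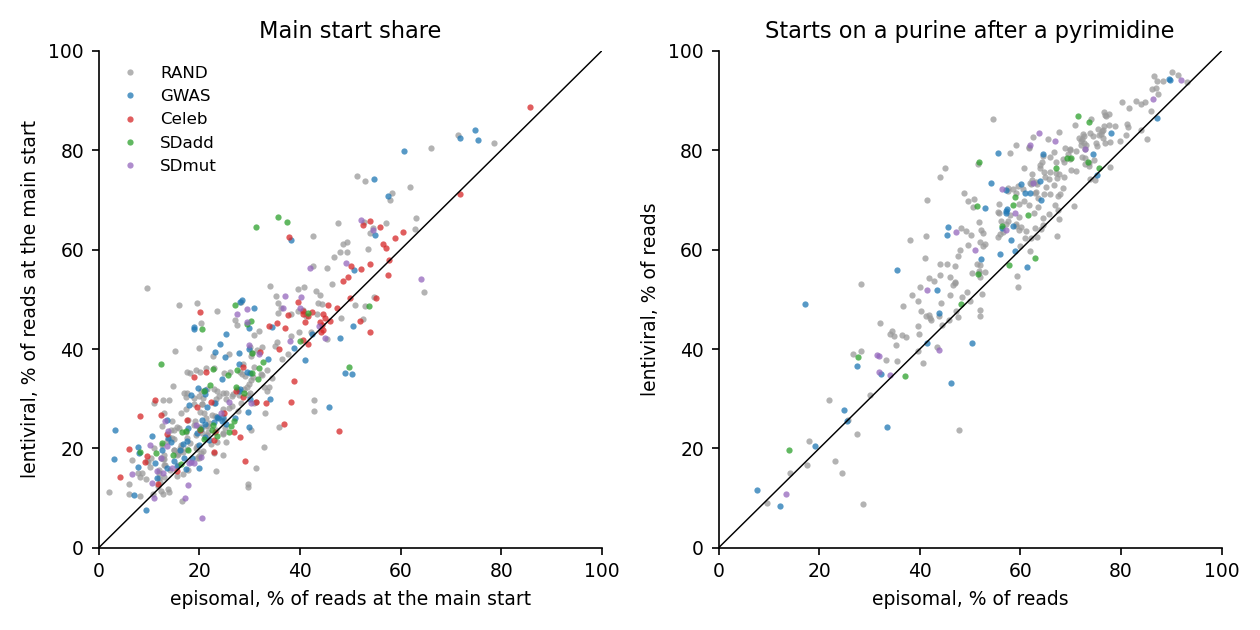
Left, percent of RNA reads at the main start of each of 488 inserts, mean of 2 episomal samples (x) against mean of 2 lentiviral samples (y); right, percent of reads that start on a purine after a pyrimidine for 327 unchanged inserts with a known sequence. Points are inserts coloured by name class and the line marks equal values; most points lie above it in both panels, in the left panel 342 of 488 with all samples apart and in the right panel 262 of 327.

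The largest gain of main start share in percentage points among inserts that passed the test was at an intronic site of LINC00649, a long non-coding RNA gene (chromosome 21, 33947959 to 33948158). Its designed start held 13.1% and 6.29% of reads in the episomal samples and 51.4% and 53.3% in the lentiviral samples (limma adjusted p = 0.006), on 603, 572, 4370 and 3822 reads. At RAP1GAP, which encodes a GTPase activating protein for Rap1 (unchanged SDadd insert, chromosome 1, 21669285 to 21669484), the designed start rose from 31.2% and 31.2% to 66.6% and 62.6% (adjusted p = 0.002). The gain thus came at a base that already held 31.2% of episomal reads, and the mean position moved by only -2.10 bp. At LARP1, a regulator of translation of ribosomal protein messages (chromosome 5, 154755515 to 154755714), the share rose from 18.3% and 13.6% to 53.7% and 43.9% (adjusted p = 0.006), on no more than 163 reads in each episomal sample, and it missed the test with barcodes weighted equally (0.058). The groups did not overlap at any of these sites.

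The 3 largest losses in percentage points, 1 per gene, were in inserts whose main start was not the designed one; on the log2 odds scale ZDHHC4, described further on, had the largest, -2.03. The HBQ insert with a changed NRF1 motif, from the theta globin gene, used position 89 for 46.8% and 48.7% of its episomal reads and for 18.1% and 28.9% of its lentiviral reads (adjusted p = 0.020). That call was lost without the first (adjusted p = 0.086) or the second episomal sample (0.097). A GPN1 allele insert, from the gene of an RNA polymerase II assembly GTPase (chromosome 2, 27628923 to 27629122), used position 108 for 46.8% and 44.9% of episomal and 27.7% and 29.1% of lentiviral reads (adjusted p = 0.003). At GPN1 the most used position was 108 in both episomal and 128 in both lentiviral samples; at HBQ it was 89 in all samples but the first lentiviral one, where it was 128. At a site in an intron of NEK11, a cell cycle kinase gene (chromosome 3, 131072340 to 131072539), position 147 held 29.3% and 30.1% of episomal and 14.01% and 10.3% of lentiviral reads (adjusted p = 0.006). Counted over positions up to 140, where another base is its main start, that share was higher in the lentiviral vector, by 1.11 in log2 odds.

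The letters at the start differed along with the focus. Among 327 unchanged inserts with a known sequence, 57.9% and 56.99% of episomal reads and 64.8% and 64.97% of lentiviral reads began on a purine after a pyrimidine, each insert weighted equally. Both lentiviral samples were above both episomal samples in 262 inserts (80.1%) and below both in 24 (7.34%); no test was run on this share. Such a pair of bases stood at 281 of the 327 main starts (85.9%) and at 21.9% of all positions of these inserts. With the main start left out, the remaining starts still fell on it in 46.9% and 45.9% of episomal and 53.1% and 53.2% of lentiviral reads, apart in the same direction in 237 inserts (72.5%) and in the other in 36 (11%).

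The pair CA had the largest difference in level. CA was at 33.6% and 32.8% of episomal and 38.7% and 39.1% of lentiviral starts, and TA at 11.2% and 11.1% against 12.4% and 12.5%. CG and TG differed less, with 6.02% and 5.93% against 6.21% and 6.12% for CG and 7.20% and 7.13% against 7.45% and 7.28% for TG. All other pairs of bases were at lower levels in both lentiviral samples, among them those with a start on a pyrimidine: CC was at 7.503% and 7.51% against 5.93% and 5.92%, TC at 4.36% and 4.42% against 3.20% and 3.26%, and CT at 3.98% and 4.14% against 2.83% and 2.65%. These shares are a description, with every insert given equal weight.

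Starts near the downstream end of the readable window also differed in level. No sample had a start beyond position 164. Positions 141 to 164 held a mean of 21.1% and 22.4% of episomal and 18.7% and 19.4% of lentiviral reads. Within them, positions 152 to 156 held 6.21% and 6.56% of episomal and 3.94% and 4.08% of lentiviral reads, and both lentiviral samples were below both episomal samples in 407 of 488 inserts and above both in 23. This narrow window was not among the planned measures, and no test was run on it. Position 159 went the other way, with 1.19% and 1.29% of episomal and 1.41% and 1.54% of lentiviral reads. Upstream, positions 1 to 80 held 4.90% and 4.70% of episomal and 5.97% and 5.90% of lentiviral reads. The difference in pyrimidine-purine starts was present on both sides of position 140: up to there the shares were 58.9% and 58.3% against 65.5% and 65.8%, and beyond it 48.6% and 47.1% against 57.8% and 57.1%.

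**Figure D2:**
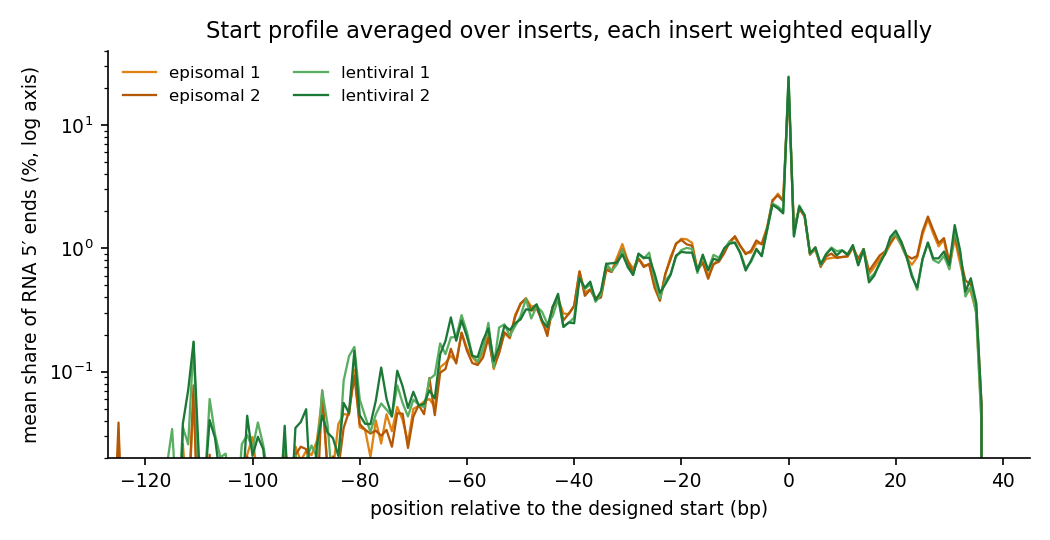
Mean share of RNA 5′ ends (percent, log axis) at each position relative to the designed start, in bp, over 488 inserts weighted equally; each line is a sample. The lentiviral lines are higher at the designed start, with 24.7% and 24.4% against 21.01% and 20.4%, and the episomal lines are higher 24 to 28 bp downstream, where positions 152 to 156 lie.

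The average start position moved in either direction, depending on the insert. The mean position passed the test (limma, adjusted p under 0.05) in 286 of 488 inserts (58.6%): starts lay further downstream in the lentiviral vector in 125 (25.6%) and further upstream in 161 (33%), with a median difference of -0.21 bp. With the median position of the reads in place of the mean, 111 passed, 60 downstream and 51 upstream. When reads beyond position 140 were left out, the balance turned to 146 downstream and 107 upstream. Without the first episomal sample 159 inserts passed, without the second 137 and without the first lentiviral sample 190.

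The place of the insert in the genome went with the direction. Inserts at an annotated start on the same strand moved downstream in 73 and upstream in 36 of 178 cases, with a median of 1.02 bp. Inserts with no annotated start within 500 bp moved downstream in 15 and upstream in 62 of 135, with a median of -2.26 bp. Inserts at a start on the opposite strand moved in 24 and 27 of 98. The median GC content was 66% for same-strand starts and 51% for sites without one. Across 411 inserts of known sequence the GC content and the shift had a Spearman correlation of 0.33, and the part of GC content in the shift was not tested. Of the 122 inserts with the lowest episomal output per DNA, 13 moved downstream and 63 upstream, whereas of the 122 with the highest output 49 moved downstream and 27 upstream.

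Among inserts that passed the test with replicates apart, the 5 largest downstream shifts were at TANGO2, TNPO1, TUT1, ZDHHC4 and the HBQ insert with a changed NRF1 motif. At TANGO2 (chromosome 22, 20021481 to 20021680, minus strand, in an intron of the gene on the other strand) the mean start was at 103.6 and 102.5 in the episomal and 123.9 and 118.8 in the lentiviral samples, a shift of 18.3 ± 2.08 bp (SE, limma adjusted p = 0.009). Position 80 held 29.2% and 30.3% of its episomal reads and 12.1% and 13.5% of its lentiviral reads. At TNPO1, which encodes the nuclear import receptor transportin (chromosome 5, 72848046 to 72848245, UTR), the mean start went from 97.3 and 97.6 to 115.9 and 110.9 (adjusted p = 0.011). Its designed start held 18.98% and 18.9% of episomal reads and 47.8% and 40.9% of lentiviral reads, and the most used base was at 81 and 84 in the episomal samples and at 128 in both lentiviral ones.

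The TUT1 insert, from a gene of a terminal uridylyltransferase (chromosome 11, 62591451 to 62591650, coding exon), is the deepest of these, with at least 49664 RNA reads in each sample. Its mean start was at 100.5 and 101.1 in the episomal and 115.8 and 116.6 in the lentiviral samples (adjusted p = 0.003), and the share at the designed start went from 19.8% and 20.8% to 44.3% and 46.1%. ZDHHC4, a palmitoyltransferase gene whose unchanged insert belongs to the SDmut class, moved from 107.3 and 106.4 to 123.1 and 120.9 (adjusted p = 0.005). There, position 102 held 20.3% and 20.7% of episomal and 5.11% and 6.91% of lentiviral reads. The HBQ insert moved from 99.02 and 96.9 to 114.4 and 110.3 (adjusted p = 0.011). The calls at TANGO2 (adjusted p = 0.052) and HBQ (0.054) were lost without the second episomal sample, and that at TNPO1 without the first (0.055) or the second (0.054).

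Of the 5 largest upstream shifts on the same conditions, 4 were in inserts with few reads. At RESF1 (chromosome 12, 31960010 to 31960209, 95 to 151 reads per sample) the mean start was at 130.5 and 124.3 in the episomal and 83.5 and 82.8 in the lentiviral samples, a shift of -44.2 ± 2.47 bp (limma adjusted p = 0.004). The unchanged NPRL3-enh1neg insert, an alpha-globin enhancer element lying within NPRL3, shifted by -39.8 bp (adjusted p = 0.015), RPS26, a ribosomal protein gene, by -33.4 bp (0.039), RNFT2 by -28.2 bp (0.017) and the NPRL3-anti insert with a changed NRF1 motif by -26.8 bp (0.005). All but the last had at most 393 reads in any RNA sample. With barcodes weighted equally RESF1 no longer passed (adjusted p = 0.077). The call at RPS26 was lost without the second episomal (0.089), the first lentiviral (0.124) or the second lentiviral sample (0.073), that at RNFT2 without the second episomal (0.064) or the second lentiviral sample (0.052), and that at NPRL3-enh1neg without the second episomal sample (0.057).

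**Figure D3:**
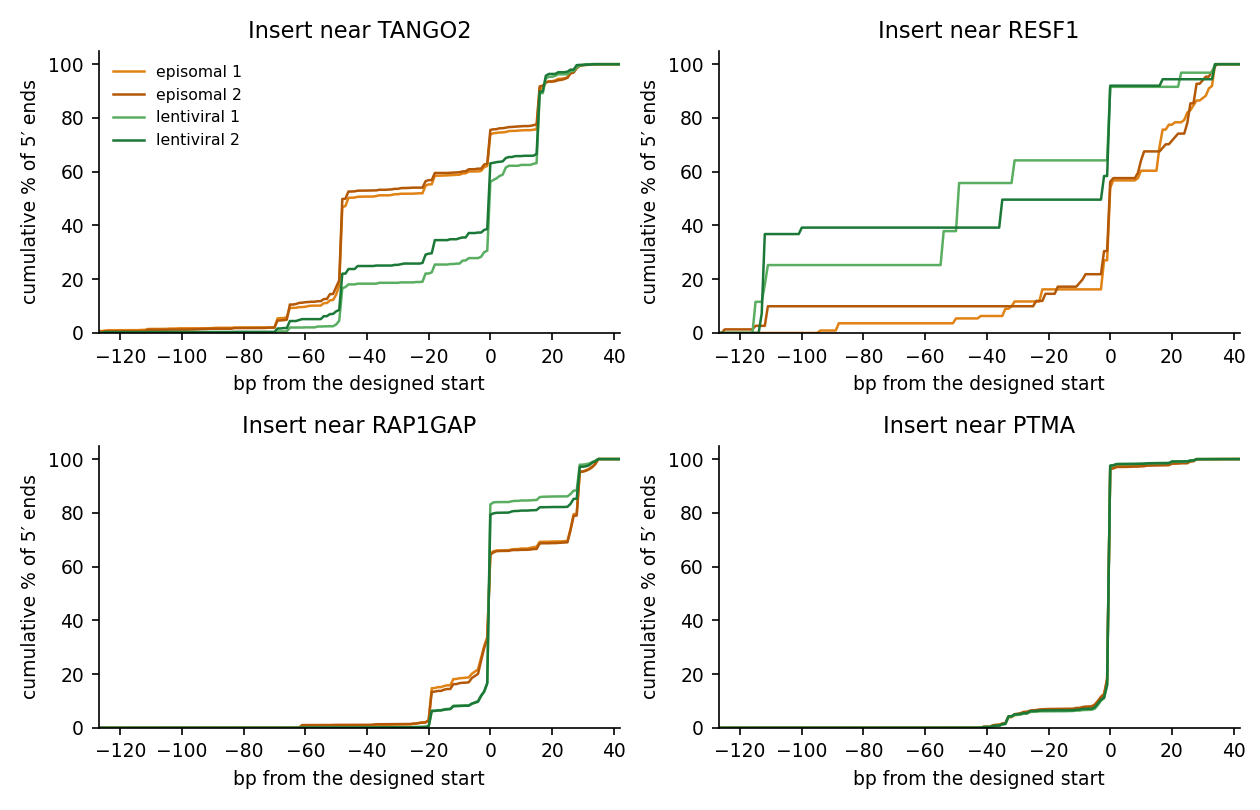
Cumulative percent of RNA 5′ ends from the upstream to the downstream end of 4 inserts, against bp from the designed start; each line is a sample, orange for episomal and green for lentiviral. The step of TANGO2 at position 80 is smaller in the lentiviral samples, RESF1 gains upstream steps on few reads, RAP1GAP gains height at the designed start, and the 4 lines of PTMA coincide.

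Most inserts nevertheless kept their most used base. The most used position was the same in all 4 RNA samples in 341 of 488 inserts. In 57 inserts the replicates agreed within each vector but the vectors differed, 34 of them further downstream in the lentiviral vector and 23 further upstream, by a median of 15 bp. The lentiviral position was the designed start in 18 of these 57 and the episomal position in 9. By class the split was 18 downstream and 9 upstream for RAND, 10 and 1 for GWAS, 3 and 5 for Celeb, 2 and 1 for SDadd and 1 and 7 for SDmut; the classes were not tested against each other.

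Whole profiles were set against each other by their earth mover distance, the mean number of bp that reads would have to move to turn one cumulative profile into another. Its median was 3.44 bp between vectors, 0.82 bp between the episomal samples and 0.95 bp between the lentiviral samples. In 394 of 488 inserts (80.7%) all 4 distances between vectors exceeded both replicate distances; by class this was 196 of 245 RAND, 72 of 87 GWAS, 60 of 77 Celeb, 35 of 40 SDadd and 31 of 39 SDmut inserts. Among inserts with at least 1000 RNA reads in each sample, the 5 closest profiles were those of PTMA, of the intergenic site on chromosome 20, of RPLP1 unchanged and with its NRF1 motif changed, and of AFF1. At PTMA, the gene of the chromatin protein prothymosin alpha (chromosome 2, 231708403 to 231708602), the designed start held 79.1%, 78.1%, 81.5% and 81.6% of reads in the 4 samples, and the mean distance between vectors was 0.39 bp. At RPLP1, a ribosomal stalk protein gene, the main start at position 129 held 25.2% and 24.5% of episomal and 27.8% and 26.6% of lentiviral reads, a difference that missed the test (limma adjusted p = 0.104). At AFF1 (chromosome 4, 87006810 to 87007009) the start at position 131 held 38.02% and 38.3% against 42.3% and 43.02% (adjusted p = 0.028), on a base that is a pyrimidine.

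Output per DNA was measured as RNA reads over DNA reads of an insert after scaling each sample, so its unit is arbitrary and only ratios between vectors carry meaning. RNA alone differed in 444 of 499 inserts (89%), with 225 above (45.1%) and 219 below (43.9%) the episomal level (edgeR, adjusted p under 0.05), and DNA alone in 405 (81.2%), 204 higher (40.9%) and 201 lower (40.3%), so the libraries held the inserts in different proportions. RNA per DNA differed in 405 of 490 inserts with enough DNA reads (82.7%), 191 higher (39%) and 214 lower (43.7%). The splits depend on scaling. With library totals RNA alone was higher in 314 and lower in 134. RNA per DNA was higher in 302 and lower in 117 with library totals, and in 266 and 148 with upper quartile scaling; the median over all inserts moved from -0.04 to 0.74 and 0.47 in log2. A single sign was kept over the 4 scalings by 345 of the 405 called inserts, and values below are relative to the main scaling. Without the second episomal DNA sample 395 inserts were called.

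The order of inserts was kept only in part. The Spearman correlation of RNA per DNA across 490 inserts was 0.73 between vectors, 0.997 between the episomal and 0.992 between the lentiviral replicates; the inserts share a library and its DNA counts. Of the 25 inserts with the highest output in each vector, 10 were the same, 40% of each list. Of 456 inserts with 4 usable barcodes, all 4 barcodes were higher in the lentiviral vector in 179 and lower in 184, and the median SD between barcodes of an insert was 0.29 for the plasmid and 0.34 for the lentivirus (log2).

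**Figure D4:**
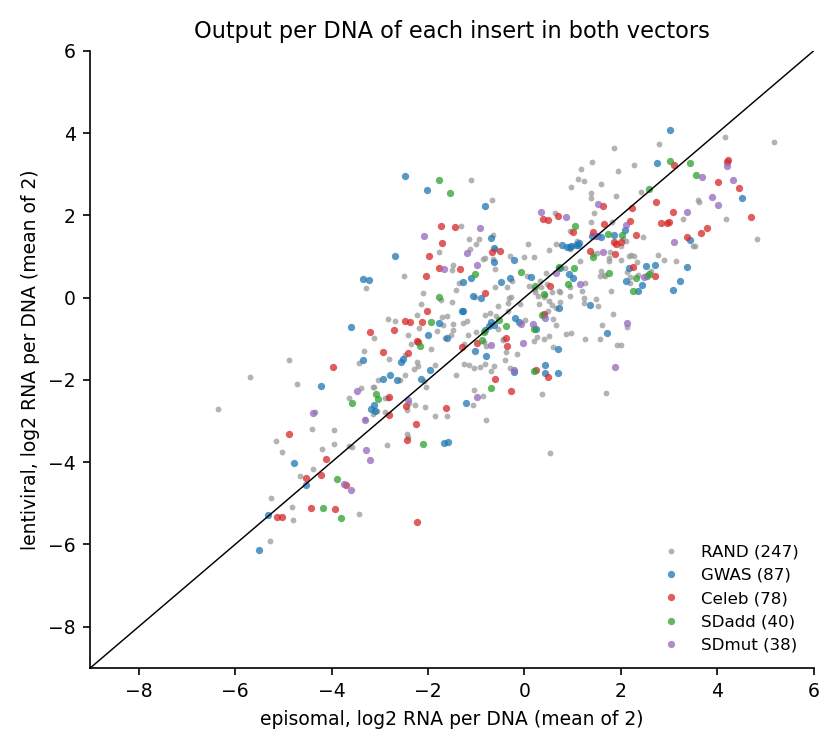
RNA per DNA of 490 inserts (log2, arbitrary unit), mean of 2 episomal samples (x) against mean of 2 lentiviral samples (y), coloured by name class; the line marks equal values. The points scatter to both sides of the line, 191 called above it and 214 below; the Spearman correlation is 0.73.

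Relative to the median of all inserts, which is -0.04 here and 0.74 with library totals, inserts at annotated starts were more often lower per DNA in the lentiviral vector and inserts away from starts more often higher. At a start on the same strand 46 inserts were higher and 102 lower of 178, with a median log2 difference of -0.50; at sites without an annotated start 77 were higher and 32 lower of 134, with a median of 0.59; at opposite-strand starts 41 were higher and 45 lower of 100. By class the split was 102 and 104 of 247 for RAND, 39 and 31 of 87 for GWAS, 27 and 35 of 78 for Celeb, 12 and 20 of 40 for SDadd and 11 and 24 of 38 for SDmut. The SDmut median was -0.65, the lowest of the classes, and the GWAS median 0.18, the highest. GC content again went with place, as given above, and its part was not tested.

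Among RAND inserts the largest gain was at a site in an intron of FPR1, on the strand opposite the gene (chromosome 19, 51785086 to 51785285). Its RNA per DNA was 0.483 and 0.452 in the episomal and 8.25 and 6.46 in the lentiviral samples, a log2 difference of 3.94 ± 0.15 (SE, edgeR adjusted p = 5.81e-133). It ranked 311th of 490 inserts in the episomal vector and 22nd in the lentiviral one. Sites in introns of RUNX1, a blood cell transcription factor gene (chromosome 21, 34908405 to 34908604, 3.75 ± 0.23), and of AFAP1L1 (chromosome 5, 149320822 to 149321021, 3.65 ± 0.22) were the next; these had the 2 lowest episomal outputs, at 0.019 and 0.020 for RUNX1 and 0.013 and 0.012 for AFAP1L1. None of these 3 sites had an annotated start within 500 bp.

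The largest losses among RAND inserts were all at starts. ZSCAN29, a zinc finger gene (chromosome 15, 43370951 to 43371150, UTR), gave 1.34 and 1.54 in the episomal and 0.063 and 0.083 in the lentiviral samples, a difference of -4.30 ± 0.13 (edgeR adjusted p = 5.00e-192). The start of the non-coding gene ENSG00000289569 (chromosome 13, 28658990 to 28659189) differed by -3.98 ± 0.13. The UTR insert of WDR74, whose protein acts in ribosome assembly (chromosome 11, 62839501 to 62839700), ranked 2nd in the episomal vector with 27.6 and 29.4 and gave 2.703 and 2.64 in the lentiviral one, a difference of -3.41 ± 0.10. All 4 barcodes moved the same way at each of these sites.

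In the GWAS class the extreme gain was an allele insert in an intron of MACROH2A1, a histone variant gene (chromosome 5, 135387026 to 135387225). It gave 0.182 and 0.177 in the episomal and 8.31 and 7.19 in the lentiviral samples, 5.42 ± 0.16 in log2 (edgeR adjusted p = 1.23e-203), the largest difference of all 490 inserts. A site in an intron of KLHL21 on the opposite strand (chromosome 1, 6609765 to 6609964) gained 3.69 ± 0.17. The losses were at starts of GPN1, in another allele than the one above (-2.90 ± 0.11), NFRKB, a chromatin remodelling subunit gene (chromosome 11, 129895485 to 129895684, -2.56 ± 0.15), and YWHAB, a 14-3-3 protein gene (chromosome 20, 44885570 to 44885769, -2.51 ± 0.13). In the replicates of these inserts the vectors did not overlap.

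The named elements were described by the lists of promoters and enhancers. All 9 inserts on the list of erythroid promoters, changed or not, were higher per DNA in the lentiviral vector, with a median of 1.94 against -0.04 over all inserts. These 9 are forms of 4 promoters, and of all inserts 39% were higher. The list did not hold HBQ, the theta globin gene, whose unchanged insert was lower in the lentiviral vector. Its values and their limits are given further on. For HBE1, the embryonic globin of the beta cluster, the unchanged insert gave 0.378 and 0.358 in the episomal and 3.40 and 3.18 in the lentiviral samples (3.16 ± 0.16, edgeR adjusted p = 3.13e-76). For HBZ, the embryonic globin of the alpha cluster, it gave 0.235 and 0.250 against 1.37 and 1.53 (2.59 ± 0.15), for HBG2, a gamma globin gene, 0.224 and 0.237 against 0.755 and 0.586 (1.54 ± 0.16), and for GATA1, the main erythroid transcription factor gene, 0.596 and 0.534 against 0.945 and 1.24 (0.93 ± 0.16). Under the 4 scalings the 4 promoters kept their sign. None of their main start shares passed the test, and of their mean positions only HBG2's did, by -4.90 bp (limma adjusted p = 0.006).

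Housekeeping promoters went the other way. Of 21 inserts, the unchanged and changed forms of 5 promoters, 18 were lower and 2 higher, with a median of -0.99. All 5 unchanged ones were lower. Over all inserts 43.7% were lower and 39% higher, and at same-strand annotated starts 102 of 178 were lower, with a median of -0.50. RPLP1 gave 20.99 and 22.7 in the episomal and 6.43 and 6.34 in the lentiviral samples (-1.77 ± 0.10, edgeR adjusted p = 3.62e-65). SF3B1, a splicing factor gene, went from 11.6 and 13.9 to 3.05 and 2.89 (-2.10 ± 0.11), NPRL3, a regulator of the mTORC1 pathway, from 1.32 and 1.49 to 0.264 and 0.258 (-2.43 ± 0.14), ENO1, the glycolytic enolase gene, from 7.46 and 8.47 to 3.40 and 3.74 (-1.15 ± 0.11) and ACTB from 3.67 and 4.35 to 2.62 and 2.52 (-0.63 ± 0.12). With library totals ACTB turned to 0.15 (adjusted p = 0.104) and with upper quartile scaling it missed the test (-0.12, 0.194), while the other 4 stayed below 0 with library totals. The mean position passed at ENO1, by 2.92 bp, and at SF3B1, by -3.87 bp, and the main start share at ACTB (limma adjusted p = 0.018) and ENO1 (0.006). The ACTB share was lost without the second episomal (0.077), first lentiviral (0.078) or second lentiviral sample (0.061). The strand opposite to NPRL3 (NPRL3-anti) also fell, by 2.18 ± 0.12 in log2.

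The locus control region of the beta-globin cluster, a set of distal enhancers (HS1 to HS5), had 9 unchanged inserts, of which 3 were higher and 4 lower, close to the 39% and 43.7% over all inserts. HS1 was higher on both strands: the minus strand insert gave 0.310 and 0.290 in the episomal and 3.58 and 3.16 in the lentiviral samples (3.48 ± 0.17, edgeR adjusted p = 2.91e-83), and the plus strand insert gained 2.47 ± 0.20. HS2 gained on its minus strand (1.13 ± 0.23) and lost on its plus strand, from 6.71 and 7.66 to 3.68 and 3.33 (-1.03 ± 0.12). HS4 on the minus strand differed by -1.998 ± 0.18, from 0.801 and 0.848 to 0.216 and 0.196, and its mean start moved by -11.3 bp (limma adjusted p = 0.003). HS3 on the plus strand (-0.66 ± 0.27, adjusted p = 0.017) and HS5 (-0.64 ± 0.25, 0.015) were lower, but with library totals both turned above 0, and HS4 on the plus strand went from -0.25 (0.145) to 0.53 (0.002). The call at HS3 was lost without the second episomal (0.177) or the second lentiviral replicate (0.080) and that at HS5 without the first (0.267) or second episomal replicate (0.057).

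The alpha-globin enhancers, which lie in introns of NPRL3, had 2 higher and 2 lower of 5 unchanged inserts, again close to the shares over all inserts. NPRL3-enh2pos rose from 0.668 and 0.743 to 2.25 and 2.17 (1.65 ± 0.15) and NPRL3-enh1pos from 0.029 and 0.040 to 0.104 and 0.097 (1.55 ± 0.17), whereas NPRL3-enh3neg (-1.20 ± 0.16) and NPRL3-enh3pos (-1.07 ± 0.14) fell. NPRL3-enh1neg was at -0.22 ± 0.24 (edgeR adjusted p = 0.405), and at 0.56 (0.034) with library totals. On the list of inducible or silent promoters, JUN, an immediate early gene, gained 0.59 ± 0.11 and TERT, the telomerase gene, went from 4.35 and 5.16 to 1.60 and 1.73 (-1.51 ± 0.13). The starts of both moved upstream, by -2.63 bp (limma adjusted p = 0.010) and -5.0006 bp (0.003). The TERT insert gave RNA in both vectors, so silent does not describe its output here. HBQ without a change differed by -0.96 ± 0.42 (edgeR adjusted p = 0.028), a call lost without the first (0.395) or second episomal replicate (0.138) and with library totals (-0.20).

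In 4 inserts there was no episomal RNA at all. These were allele inserts at OPRL1 (128 and 116 lentiviral RNA reads) and IL18RAP (958 and 852), a site opposite ADNP (696 and 599) and an intronic site of LINC01033 on chromosome 5 (692 and 763). The first 3 also had 0 episomal DNA reads in both samples, and the last had 3 and 1, so these inserts were at or below the level of 3 reads in the episomal DNA and no output per DNA was computed for them.

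The splice donor inserts come in pairs, so their comparison does not depend on the scaling: within each sample the log2 RNA per DNA of the changed insert was set against that of its reference, and limma was run over all 134 designed pairs with enough reads. Mutating a donor raised output in most pairs, and more so in the lentiviral vector. Adding a donor lowered output in 18 of 20 pairs in the episomal vector. In the lentiviral vector it lowered output in 10 and raised it in 6. Over all 134 pairs, which include motif and allele changes, the effect differed between vectors in 81 (60.4%), higher in the lentiviral vector in 60 (44.8%) and lower in 21 (15.7%). Of 19 SDmut pairs 14 were higher and 2 lower. Of 20 SDadd pairs 11 were higher (55%) and 1 lower (5%), and the share that differed in either direction (60%) was close to that of all pairs. The lower calls changed most with the samples used: leaving out 1 replicate at a time gave 0 to 2 for SDadd and 0 to 1 for SDmut.

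The SDmut references are marked by donor letters. GGTAAG or GGTGAG, sought on the insert's own strand between position 129 and its end, stood in 13 of 20 SDmut references, 3 of 20 SDadd references, 3 of 45 GWAS references and 12 of 250 RAND inserts (4.8%). The windows below show 4 of the SDmut references with these letters in capitals; they carry the pairs described next.
ZDHHC4, chr7:6577486-6577515, plus strand: ccagcggctggcGGTAAGgccgcctccgcg
ANAPC15, chr11:72112717-72112746, minus strand: acgcatgcgtttGGTGAGtcccggattctg
MAPK8IP3, chr16:1706040-1706069, minus strand: gccggaagcgcgGGTGAGccgggcagaggg
BSDC1, chr1:32394387-32394416, minus strand: agatggcggaagGGTGAGcttgtcgttttg
The letters begin at position 138 of the ZDHHC4 insert, 150 of ANAPC15, 159 of MAPK8IP3 and 149 of BSDC1, all downstream of the designed start. The sequences of the changed inserts were not used here.

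In the episomal vector the mutated insert exceeded its reference in 12 of 19 SDmut pairs and fell below it in 5, against 27.6% above and 51.5% below among all 134 pairs. In the lentiviral vector it was above in 14 and below in 2, against 41% and 35.8%. The median effect was 0.52 and 0.48 in the episomal samples and 0.80 and 0.76 in the lentiviral samples (log2). Of the 12 pairs whose reference held the donor letters, the median was 0.54 for the plasmid and 1.12 for the lentivirus, and of the 7 without them 0.48 and 0.52; this split is a description.

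At ZDHHC4 (chromosome 7, 6577361 to 6577560, UTR) the mutated insert exceeded its reference by 1.55 and 1.43 in the episomal and by 3.83 and 3.74 in the lentiviral samples, a difference of 2.30 ± 0.09 (limma adjusted p = 0.00016). The reference gave 3.27 and 4.13 RNA per DNA in the episomal and 0.293 and 0.325 in the lentiviral samples, the mutated insert 9.58 and 11.1 against 4.18 and 4.35. The loss of the reference in the lentiviral vector, -3.57 ± 0.13, was the largest of the SDmut class and came with the downstream move of its starts given above. At a site in an intron of LINC00174 on the opposite strand (chromosome 7, 66492501 to 66492700) the effect was -0.01 and -0.16 in the episomal and 0.89 and 1.06 in the lentiviral samples (difference 1.06 ± 0.10, adjusted p = 0.0015). At BSDC1 (chromosome 1, 32394353 to 32394552) it changed sign, from -0.33 and -0.33 to 0.75 and 0.63 (1.03 ± 0.08, adjusted p = 0.0010).

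ANAPC15, a subunit gene of the anaphase promoting complex (chromosome 11, 72112684 to 72112883), and MAPK8IP3, a JNK scaffold gene (chromosome 16, 1706016 to 1706215, insert on the opposite strand), were next among pairs with large effects in both vectors. The ANAPC15 effect was 1.70 and 1.72 in the episomal samples, with a lentiviral mean of 2.71, and the MAPK8IP3 effect 0.94 and 1.03 against 1.89 and 2.03. Their references fell by 1.99 ± 0.11 and 2.71 ± 0.15 between the vectors. The mutated insert of ADD2, the beta adducin gene (chromosome 2, 70717636 to 70717835), had the largest gain of the class: it went from 0.208 and 0.270 to 3.35 and 2.39, or 3.57 ± 0.19, beside 2.58 for its reference. The mutated insert at a site in an intron of AMMECR1 gained 2.34 ± 0.34 on 2 usable barcodes, though at both the mutated insert was below its reference in the 4 samples. The 2 pairs whose effect was lower in the lentiviral vector were KLF5 (0.77 and 0.54 against 0.32 and 0.30, adjusted p = 0.044) and CBX5 (0.94 and 0.90 against 0.67 and 0.38, adjusted p = 0.044), and each lost its call when any of 3 samples was left out, with adjusted p from 0.053 to 0.098 for KLF5 and from 0.135 to 0.163 for CBX5.

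**Figure D5:**
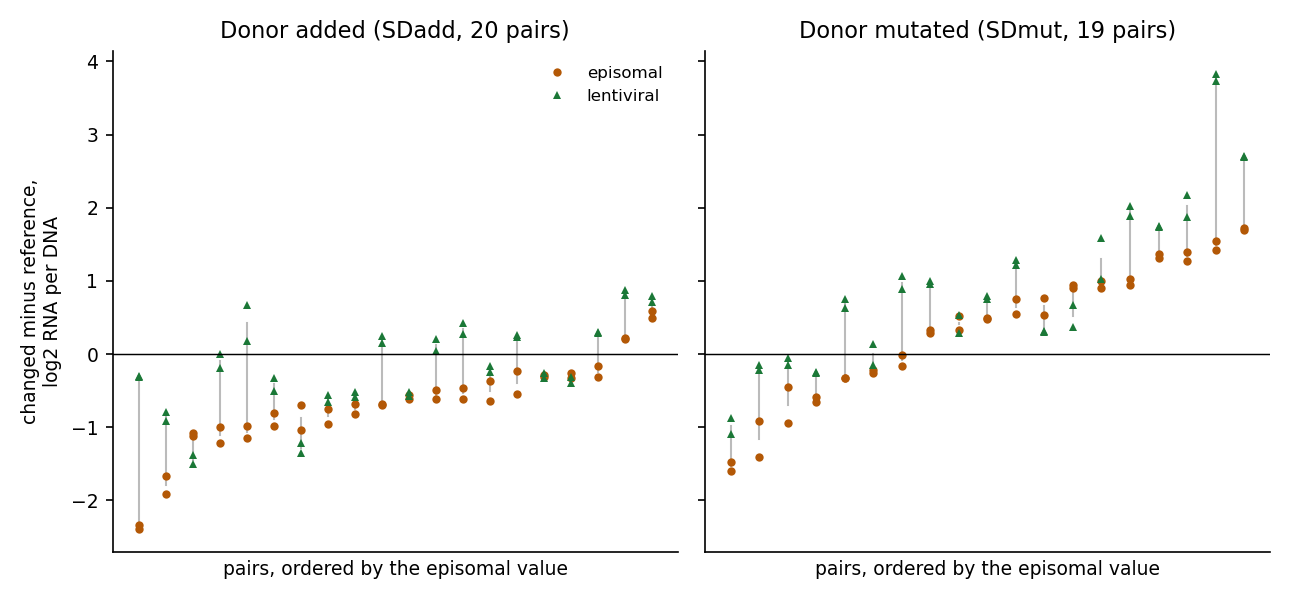
Log2 RNA per DNA of the changed insert minus that of its reference in each of 2 episomal (circles) and 2 lentiviral (triangles) samples, for 20 pairs with an added donor (left) and 19 with a mutated donor (right); grey lines join the vector means and pairs are ordered by the episomal value. Most lentiviral values lie above the episomal ones in both panels, with all samples apart in that direction in 15 of 20 and 16 of 19 pairs. Among all 134 designed pairs this held in 80. The samples were apart in the other direction in 2 SDadd pairs, 2 SDmut pairs and 33 of all 134.

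Added donors lowered output in the episomal vector in 18 of 20 SDadd pairs and raised it in 2, against 51.5% below and 27.6% above among all 134 pairs. In the lentiviral vector they lowered it in 10 and raised it in 6, against 35.8% and 41%. Losses were thus fewer in the lentiviral vector among all designed pairs too. The median effect was -0.66 and -0.66 in the episomal samples and -0.27 and -0.23 in the lentiviral samples. At an intergenic site on chromosome 7 (96358277 to 96358476) the effect was -2.33 and -2.39 in the episomal and -0.31 and -0.31 in the lentiviral samples, a difference of 2.06 ± 0.07 (limma adjusted p = 0.00016). There the reference went from 5.42 and 6.65 to 1.69 and 1.33 RNA per DNA, and the insert with the added donor gave 1.08 and 1.26 against 1.37 and 1.07.

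At DCAF4, a substrate receptor gene of a ubiquitin ligase (chromosome 14, 72926374 to 72926573, UTR), the effect changed sign, from -0.98 and -1.15 to 0.67 and 0.17 (1.49 ± 0.19, limma adjusted p = 0.0032). The DCAF4 reference already held the donor letters. At PRDX1, a peroxiredoxin gene (chromosome 1, 45521942 to 45522141, in an intron on the opposite strand), the effect went from -0.99 and -1.21 to -0.0046 and -0.19 (1.01 ± 0.12, adjusted p = 0.0027). METTL5, an 18S ribosomal RNA methyltransferase gene, was 1 of the 2 sites where the added donor raised output in both vectors, by 0.22 and 0.21 in the episomal and 0.81 and 0.87 in the lentiviral samples. RAP1GAP was the 1 called pair with a stronger loss in the lentiviral vector, -1.08 and -1.12 against -1.50 and -1.39 (difference -0.34 ± 0.08, adjusted p = 0.021), which was lost without the first (0.087) or second episomal (0.070) or the first lentiviral replicate (0.096).

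Single SDadd inserts also differed widely between vectors in output per DNA. The insert with an added donor in a non-coding exon of GABPB1 (chromosome 15, 50353848 to 50354047) rose from 0.273 and 0.311 to 8.81 and 5.88, or 4.62 ± 0.16 (edgeR adjusted p = 1.58e-144), while its donor effect was small in both vectors, -0.31 and -0.17 against 0.29 and 0.30. Inserts with an added donor in an intron of ACAN (1.80 ± 0.16) and at DCAF4 (1.35 ± 0.15) rose too. Among the falls of the class were those at the intergenic reference on chromosome 7, with -2.004 ± 0.12, and at the start of ENSG00000272719 within ACTB (chromosome 7, 5556351 to 5556550), with -1.97 ± 0.15.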

How the data were processed

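Barcoded reporter RNA and DNA were measured in 8 samples. The authors deposited, per barcoded insert, RNA and DNA read counts and the fraction of RNA reads starting at each position; STAR 2.7.9a and hg38 stand in the submitters' processing notes, and counting, barcode matching and filters are not given in the sources used here. Each table stacks 4 blocks, and replicate numbers rest on the order of names in the table's own name. The 4 csRNA blocks were not used. Fraction times RNA count gave whole reads for 99.83% to 99.88% of values (tolerance 0.05), which were summed over the 4 barcodes.

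RNA (mean of at least 10 reads), DNA and RNA per DNA (at least 20 DNA reads in each DNA sample, an interaction term) were tested with edgeR 4.0.16 quasi-likelihood fits after TMM scaling. Mean start position and the log2 odds of the main start share (0.5 reads added, at least 50 RNA reads in each sample) were tested with limma 3.58.1, as were the designed pairs on log2 of RNA over DNA with 1 read added. edgeR gave the RNA per DNA fit infinite prior degrees of freedom, so all inserts share 1 spread and the smallest p-values rest on that. All p-values were Benjamini-Hochberg adjusted over all inserts or pairs of a fit. With 2 samples against 2, an exact permutation test of 1 value cannot go below 0.333. The fits were tested on simulated data. DESeq2 1.42.0, other scalings, filters, start measures and left-out replicates were the alternatives.

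The members and lists were chosen with earlier results of these data known. The text names unchanged Celeb and list inserts, the 3 largest called differences each way per class (1 per gene or parent insert, replicates apart), the 5 largest position shifts and 3 largest share changes in percentage points each way on the same conditions, the 5 closest profiles and inserts without RNA in 1 vector; the pair effects of ANAPC15 and MAPK8IP3 were chosen after their values were seen. Of the inserts this selects, 3 are not reported here. Inserts were placed on hg38 at the offset, 1 per strand, with the highest share of starts on a purine after a pyrimidine. Genes are from GENCODE release 44 on hg38. p-values and intervals cover the spread between these samples only.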

Additional observations from a re-analysis of the deposited data

Results flagged for a closer look

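The effect of the donor change differed between the vectors, by the limma test of the difference itself, in 12 of 20 SDadd and 16 of 19 SDmut pairs. Over all designed pairs it differed in 81 of 134 (60.4%), and the SDadd share (60%) was close to that. Given here are, for each class, the 3 largest differences in each direction, or all where fewer passed. For added donors the lentiviral effect exceeded the episomal one by 2.06 at the intergenic site on chromosome 7 (adjusted p = 0.00016), by 1.49 at DCAF4 (0.0032) and by 1.01 at PRDX1 (0.0027), and it was lower at RAP1GAP, by -0.34 (0.021). For mutated donors the difference was 2.30 at ZDHHC4 (limma adjusted p = 0.00016), 1.06 at the intron site of LINC00174 (0.0015) and 1.03 at BSDC1 (0.0010), and it was lower at CBX5, by -0.40 (0.044), and KLF5, by -0.35 (0.044). Of these 9 pairs, the 3 lower ones did not pass when some single replicates were left out.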

How the results depend on the processing

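With library totals 134 inserts were lower in RNA, and RNA per DNA had 302 higher and 117 lower; under them ACTB (0.15), HBE1-HS3pos (0.12), HBE1-HS4pos (0.53), HBE1-HS5neg (0.14) and NPRL3-enh1neg (0.56) turned above 0. The median position in place of the mean gave 111 calls (60 downstream, 51 upstream), and positions up to 140 gave 107 upstream. The share within 2 bp of the main start was lower in 55 inserts and the share at the designed start in 56. The main start log2 odds reversed at HBE1-HS3pos (-0.27) with barcodes weighted equally, at NPRL3-enh2pos (0.26) within 2 bp, and at TERT (1.5002) and the NEK11 intron site (1.11) over positions up to 140. Leaving out each replicate in turn gave 137 to 198 position calls (55 to 81 downstream, 75 to 122 upstream), 182 to 227 share calls (163 to 201 higher, 17 to 26 lower), and 0 to 2 lower SDadd and 0 to 1 lower SDmut pairs. With the replicate block the calls were 442 for RNA, 429 for DNA, 391 for RNA per DNA, 242 for position and 247 for share, none moved by more than 1.5 times. Same-numbered samples had correlated deviations of -0.05 for RNA, 0.33 for DNA, 0.14 for position and 0.23 for share, and with 2 pairs they share only a number. DESeq2 called 446 inserts for RNA, 409 for DNA and 407 for RNA per DNA, limma on log ratios 381. Positions up to 140, the share at the designed start, the fit without the second episomal DNA sample (395 calls) and the pair test were chosen after seeing the data. That DNA sample was the shallowest, with 1698930 reads. The cause of these changes was not tested.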
